A study of Mus musculus with 7 samples.

Results

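The Notch pathway and the basic helix-loop-helix (bHLH) fate factors around it were examined in mouse neural stem cells (NSCs) as 36 named genes of the 55335 gene IDs that were counted. The 36 genes include 4 Notch receptors, 5 ligands, 3 processing proteases, 3 fringe enzymes and 3 regulators of endocytosis. The rest are 4 proteins of the nuclear complex, 7 genes of the Hes, Hey and Nrarp kind, 3 proneural factors and 4 Id factors. All 36 were picked by name for their known place in the pathway. Each was matched by its gene ID to the mouse Gencode annotation on GRCm38 with the ID version ignored. Of the 36, 27 passed the filter on low counts and were tested, 9 did not pass, and 1 of those 9, Neurog1, had no count in any sample.

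RNA from 7 NSC samples was sequenced as long nanopore reads, from polyA RNA turned into cDNA without a PCR step. Samples came from mice of the FVB/N strain, with 4 WT samples and 3 Smchd1-null samples that carry the Smchd1MommeD1 mutation, and none had any other treatment. Smchd1 is an SMC-family chromatin protein of epigenetic silencing, and the question of the design was which genes differ between NSCs with and without it. All cells were grown in a proliferation medium with the growth factors EGF and bFGF, and the labels give neither age nor stage. Libraries were made in 2 batches with different versions of the cDNA kit, WT 2, Smchd1-null 1 and Smchd1-null 2 in batch 1, WT 3, WT 4 and Smchd1-null 3 in batch 2, and WT 1 in both. The labels do not say whether the replicates of a genotype are separate cultures or separate animals, so a p-value here measures the spread between these samples, which may be technical.

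Each sample held 2741820 to 7736498 gene counts. Levels are given as counts-per-million (CPM) of the tested genes after TMM scaling, which corrects for differences in library composition, and 3 counts, taken as the detection floor, were worth 0.399 to 1.13 CPM. Smchd1 itself read 66.9, 56.4, 74.7 and 55.7 CPM in the WT samples against 17.3, 12.8 and 18.4 CPM in the Smchd1-null samples, with no overlap. The neural stem markers were all detected. Their summed level was 8881 to 13690 CPM in WT and 8468 to 10030 CPM in Smchd1-null samples. Of these sums Fabp7 alone held 4511 to 9464 CPM. Microglial and endothelial markers summed to at most 2.23 and 3.93 CPM. Neuronal markers summed to 395 to 477 CPM in WT and 395 to 417 CPM in Smchd1-null samples, and Map2 alone held 327 to 362 CPM of these sums. WT 4 stood apart from the other WT samples. Its astrocyte markers summed to 946 CPM against 335 to 440 CPM in the other WT samples and 247 to 404 CPM in Smchd1-null samples. Aldoc alone held 833 CPM of the sum in WT 4, 298 to 403 CPM in the other WT and 212 to 366 CPM in Smchd1-null samples. The other astrocyte markers also read highest of the WT samples in WT 4. Oligodendrocyte markers of WT 4 summed to 486 CPM, against 48.8 to 123 CPM in the other WT and 57.5 to 85.1 CPM in Smchd1-null samples. Of the 27 tested genes, 15 read highest of all samples in WT 4. The share over all tested genes was not taken, so this count is not read as particular to these genes.

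Notch signalling passes between touching cells. A ligand on one cell binds a Notch receptor on its neighbour, proteases of the ADAM family and then the gamma-secretase complex cut the receptor, and the freed intracellular part enters the nucleus, where it joins the DNA-binding protein Rbpj and a Mastermind coactivator to switch on Hes and Hey genes. Hes and Hey proteins are bHLH repressors that hold back proneural bHLH activators, and Id proteins, which lack a DNA-binding region, tie up the partners that bHLH activators need. In neural stem cells both families are known for keeping cells undifferentiated.

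The DNA word bound by Rbpj, TGGGAA on either strand (TTCCCA when read from the other strand), was searched in the 250 bases before the transcription start of each gene in RefSeq promoter sequences on GRCm38.p6, with the bases after the start left out. A promoter sequence was found for 30 of the 36 genes, with 37 start windows between them. Hes1, Hey1, Heyl, Mib1, Mfng and Id1 had none and were not searched. The word was in 9 of these 37 windows (24.3%), against 21.6% of the 32851 windows of all genes. Of the searched genes of the Hes, Hey and Nrarp kind, Hes5 and Hey2 held the word, and Hes6 and Nrarp did not. The word was there at least 2 times in 3 of the 37 windows, 1 each of Hes5, Lfng and Rbpj (8.11%), against 2.77% of all windows. The promoters below are shown for Hes5 and Lfng, classical Notch targets, and for Hes6, which does not hold it. Each sequence runs 5' to 3' on the strand of its gene and ends at the base before the start, and the capitals mark the word. Hes5 lies on the plus strand and its window at chr4:154960673-154960922, with words whose first bases are at -226 and -82 from the start. The window of Lfng is on the plus strand at chr5:140607091-140607340, with words at -135 and -108. For Hes6 the window is on the minus strand at chr1:91414039-91414288.
Hes5: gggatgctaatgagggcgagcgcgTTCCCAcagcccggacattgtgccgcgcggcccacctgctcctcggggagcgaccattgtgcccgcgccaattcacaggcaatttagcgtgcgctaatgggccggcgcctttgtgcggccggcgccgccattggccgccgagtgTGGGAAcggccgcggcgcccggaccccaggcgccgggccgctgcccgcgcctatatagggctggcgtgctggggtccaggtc
Lfng: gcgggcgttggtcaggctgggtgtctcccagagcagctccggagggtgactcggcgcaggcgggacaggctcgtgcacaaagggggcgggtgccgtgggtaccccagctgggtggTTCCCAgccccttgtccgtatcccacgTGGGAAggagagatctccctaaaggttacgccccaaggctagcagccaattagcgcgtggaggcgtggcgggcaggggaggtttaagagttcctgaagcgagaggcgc
Hes6: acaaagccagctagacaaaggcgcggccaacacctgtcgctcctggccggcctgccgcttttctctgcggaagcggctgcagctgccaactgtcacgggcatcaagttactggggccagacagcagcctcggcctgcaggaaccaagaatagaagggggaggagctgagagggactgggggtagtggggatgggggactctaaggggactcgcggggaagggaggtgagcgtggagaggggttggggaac

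The 7-base form GTGGGAA, which overlaps the shorter word, was in 5.42% of all windows. It was in 1 window each of Hes5, Hey2, Psen2 and Lfng, 4 of the 30 genes searched. Both words of the Hes5 window have this form. A match only says that the letters are there. Binding was not measured.

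In WT NSCs the pathway was represented at each step. Levels of different genes were compared as CPM, without division by gene length. The paper holds that reads from unfragmented cDNA should in theory carry no length bias, and found only a weak correlation of level with length. By CPM Id3 was the highest of the 36 genes at 481 ± 141 (SD, n = 4). Lfng followed at 199 ± 24.5, Hes6 at 164 ± 53.9 and Id2 at 120 ± 40.9 CPM (SD, n = 4). Next were Adam10 at 91.6 ± 10.3 and Hes5 at 82.7 ± 50.2 CPM (SD, n = 4). Neighbours in this order from Lfng to Hes5 differed by less than the larger of their SDs, so their order is not settled. Among receptors Notch3 read 41.8 ± 16.8, Notch2 14.8 ± 1.06 and Notch1 12.4 ± 7.45 CPM (SD, n = 4). Among ligands Dll1 and Dll3 read 76.4 ± 6.38 and 63.7 ± 16.4 CPM (SD, n = 4). Within families the counts were unevenly shared. Lfng took 81.8 ± 2.07% of the fringe counts, Id3 73.5 ± 4.96% of the Id counts and Notch3 57.7 ± 13.9% of the receptor counts in WT (SD, n = 4).

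**Figure D1:**
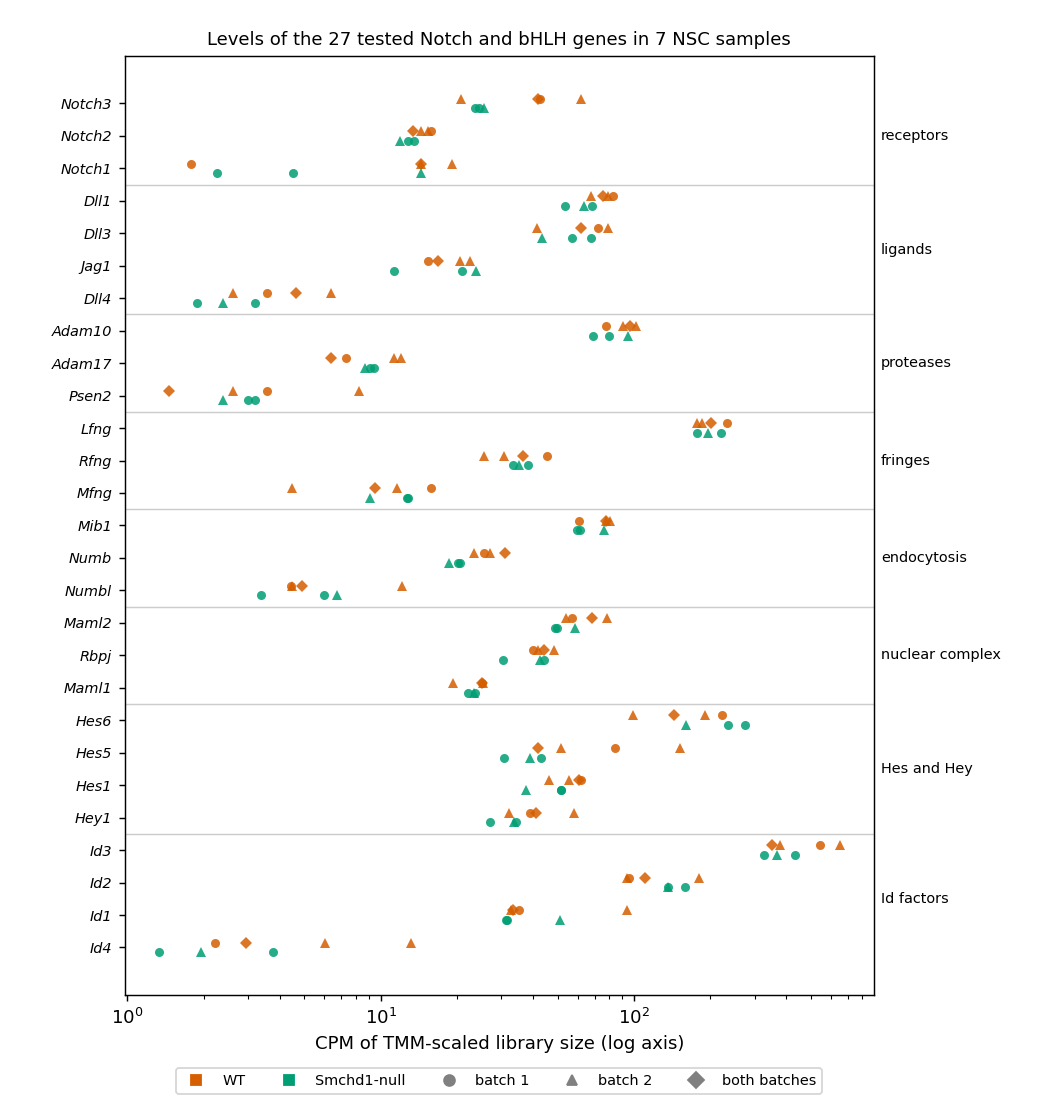
CPM on a log axis for the 27 tested genes, grouped by role, with 1 point for each of the 7 samples; colour gives the genotype and shape the batch. WT and Smchd1-null points overlap for every gene except Numb, where the 3 Smchd1-null samples at 18.6 to 20.6 CPM sit below the 4 WT samples at 23.3 to 31.0 CPM. The values are not divided by gene length.

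Between genotypes, none of the 27 tested genes was detected as differentially expressed. With limma the count was 0 at the adjusted p cutoff of 0.05 and 0 at the more liberal one of 0.25, and the smallest adjusted p was 0.31. Over all 13305 tested genes the liberal cutoff called 144 (1.08%), 63 higher (0.474%) and 81 lower (0.609%) in Smchd1-null samples, and the cutoff of 0.05 called 12 (0.0902%). At an unadjusted p under 0.05 limma found 5 of the 27 (18.5%), namely Hes5, Numb and Id4 with lower and Hes6 and Id2 with higher values in Smchd1-null samples, against 13.9% of all tested genes, of which 6.74% had lower and 7.11% higher values. The edgeR quasi-likelihood test and DESeq2 also called 0 at both cutoffs, and each found Notch3, Hes5, Numb and Id4 at an unadjusted p under 0.05, against 5.07% and 4.46% of all tested genes.

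The estimates leaned to lower values in Smchd1-null samples, with 19 of 27 below and 8 above 0 and a median log2 fold change of Smchd1-null over WT (logFC) of -0.19, beside a median of 0.0049 over all tested genes, of which 49.4% were below 0. The groups did not overlap for 1 of the 27 genes (3.70%), which was Numb, against 5.53% of all tested genes. Of the cell type markers, 1 was called at 0.25, Aldoc of the astrocyte list, which was lower in Smchd1-null samples (limma adjusted p 0.233). At an unadjusted p under 0.05 limma also gave lower values for 3 of the 8 neural stem markers (Msi1, Slc1a3 and Fabp7, logFC -0.37, -0.39 and -0.34) and for Dcx of immature neurons (-1.38). Msi1 did not overlap between groups. Neither did Vim of the same list, which was higher in every Smchd1-null sample (logFC 0.14). Nes also had a positive logFC (0.11), and the other neural stem markers had negative ones. The part of these cells in the lean of the 27 genes was not tested. In RNA from whole cultures, fewer cells of a type and less RNA per cell cannot be told apart. The median half-width of the 95% intervals was 0.40 on the log2 scale, and for 6 of the 27 genes the interval reached past a doubling or a halving, so that missing the cutoff does not show that genotypes were alike.

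The count of 0 at the cutoff of 0.25 depended on which samples entered. Without WT 2, 9 of the 27 genes were called (33.3%), and without Smchd1-null 3, 11 were called (40.7%), while the counts over all genes went to 2924 (22.7%) and 3153 (23.5%). Hes5, Notch1, Numb, Mib1, Adam10 and Id4 were called as lower and Hes6 and Id2 as higher in both of these fits. Without Smchd1-null 3 the remaining Smchd1-null samples are all of batch 1, and without WT 2 no WT sample is of batch 1 alone, so in those fits batch and genotype lie closer together than in the full set, and their parts in the calls were not tested. Without WT 3, 1 of the 27 genes was called (3.7%), Notch3, against 43 over all genes (0.327%). Leaving out each of the other samples gave 0. With the share of batch 2 as a covariate 0 were called.

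**Figure D2:**
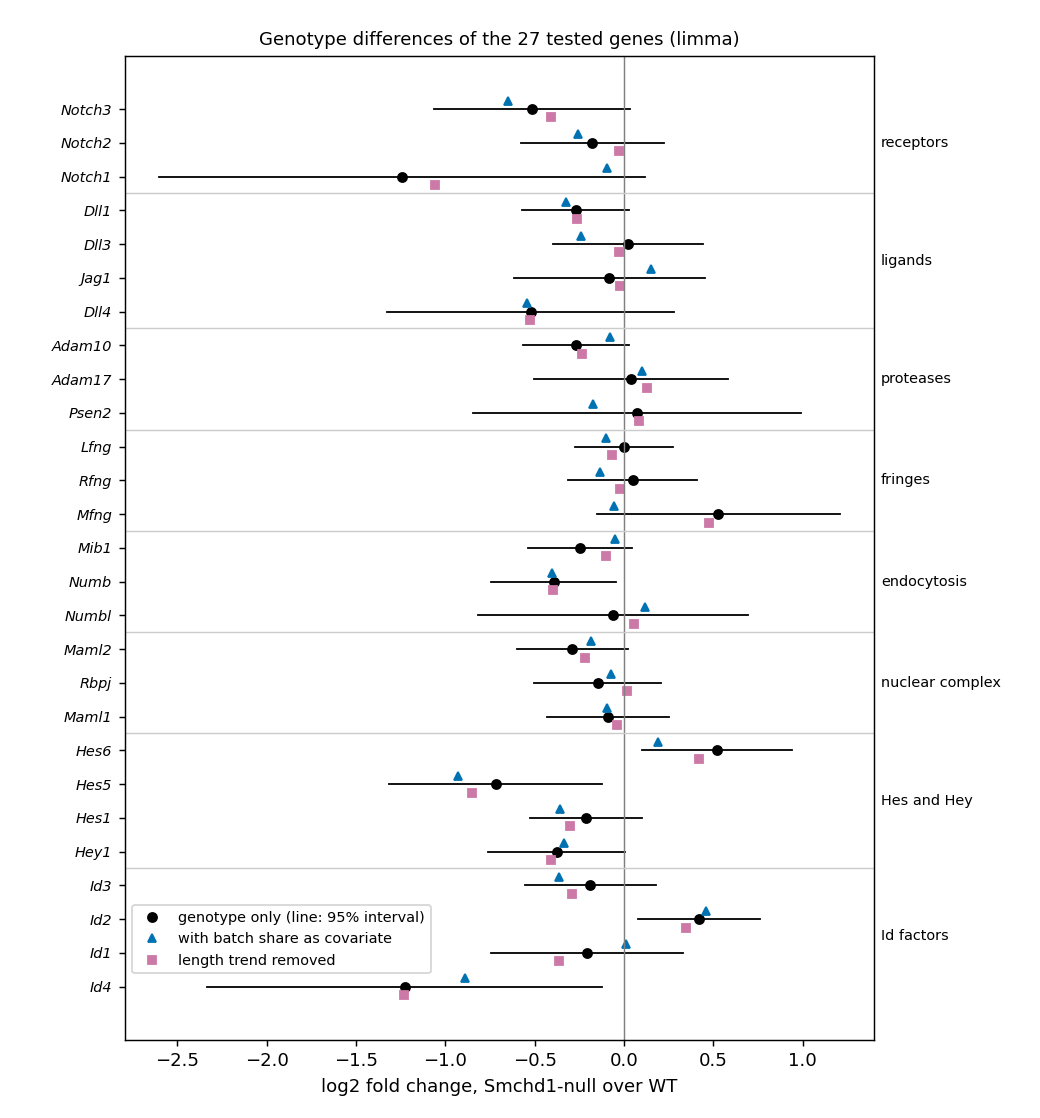
Log2 fold change of Smchd1-null over WT for the 27 tested genes by role. Black points and lines give the limma estimate from genotype only with its 95% interval, blue triangles the estimate with batch share as a covariate, and pink squares the estimate after removal of the trend with gene length. The intervals of Hes5, Hes6, Numb, Id2 and Id4 leave out 0 before adjustment, and Notch1 moves from -1.24 to -0.09 with the batch covariate.

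The receptors are the proteins that carry the signal from the cell surface to the nucleus. Notch3 read 42.0, 42.7, 20.7 and 61.7 CPM in the WT samples and 23.7, 24.5 and 25.5 CPM in the Smchd1-null samples. The Smchd1-null values were tight and lay between WT 3, the lowest sample, and the other 3 WT samples. The logFC of Notch3 was -0.51 with an SE of 0.26 and a limma adjusted p of 0.38. Without WT 3 it was -0.91 with an adjusted p of 0.138, the only gene of the list called in that fit, and without WT 4 it was -0.39. Within batch 1 (WT 2 against Smchd1-null 1 and 2) the difference in log-CPM was -0.81, and within batch 2 (WT 3 and 4 against Smchd1-null 3) it was -0.48. Notch2 was the steadiest receptor, with 13.4, 15.8, 14.4 and 15.4 CPM in WT and 13.5, 12.8 and 11.9 CPM in Smchd1-null samples. Its groups touched at WT 1, and its logFC was -0.18 with an SE of 0.19 and an adjusted p of 0.668.

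Notch1, the receptor best known from neural progenitors, read 14.4, 1.78, 19.1 and 14.4 CPM in WT and 2.25, 4.53 and 14.5 CPM in Smchd1-null samples, from 59, 8, 73 and 84 counts and 6, 34 and 67 counts. The 3 samples made in batch 1 alone were the 3 lowest, whichever their genotype, and Smchd1-null 3, made in batch 2, lay within the WT range. Its logFC was -1.24 (95% interval -2.60 to 0.12) with a limma adjusted p of 0.39, and it ran from -1.89 without WT 2 to -0.56 as other samples were left out. The genotype difference was 0.73 within batch 1 and -0.19 within batch 2 in log-CPM, and the estimate with batch share as a covariate was -0.09. Notch1 spans chr2:26457903-26516663 on the minus strand, its 14232 bases of exons are the longest of the 36 genes, and 1068 of them overlap an antisense gene, 0610009E02Rik, which had 3 counts over all samples. Notch4, known mainly from blood vessels, did not pass the filter, with 2 to 22 counts per sample.

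Of the ligands, Dll1, which activates receptors on neighbouring cells, read 75.7, 82.9, 67.9 and 79.2 CPM in WT and 53.3, 68.5 and 63.6 CPM in Smchd1-null samples. Only Smchd1-null 2 reached the WT range, above WT 3 by less than 1 CPM. The logFC was -0.27 (SE 0.14) and the limma adjusted p 0.395. Dll3, which acts inside the cell that makes it rather than on neighbours, read 62.0, 72.4, 41.4 and 79.1 CPM in WT and 67.6, 57.2 and 43.3 CPM in Smchd1-null samples, with groups that overlapped throughout. Its logFC was 0.02 (SE 0.20, adjusted p 0.965) with genotype only and -0.24 with batch share as a covariate, so it has no settled direction. Jag1, a ligand of the Jagged class, and Dll4, best known from vessel sprouts, had logFCs of -0.08 and -0.52 with adjusted p of 0.9 and 0.525. Jag2 did not pass the filter, at 2 to 32 counts per sample.

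Cutting of the bound receptor starts with Adam10, which read 96.2, 77.7, 102 and 90.9 CPM in WT and 69.1, 79.6 and 95.3 CPM in Smchd1-null samples. In both genotypes the sample or samples of batch 1 alone were lowest, and the logFC of -0.27 (SE 0.14, adjusted p 0.39) became -0.08 with batch share as a covariate. Adam17, the related sheddase, read 6.35, 7.33, 11.3 and 12 CPM in WT and 9.38, 9.05 and 8.66 CPM in Smchd1-null samples, inside the WT range, with a logFC of 0.04 (SE 0.25, adjusted p 0.956). Of its exons 311 bases overlap the antisense gene Iah1, which had 244 counts in all, and whether strand was used in counting is not stated. Psen2, a catalytic subunit of gamma-secretase, was low, at 1.47 to 8.23 CPM over the 7 samples, with a logFC of 0.07 (SE 0.43).

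The fringe enzymes add sugars to Notch that change which ligands it answers. Lfng, the most abundant of them, read 202, 233, 185 and 178 CPM in WT and 178, 220 and 197 CPM in Smchd1-null samples. These ranges nearly coincided, with means of 199 ± 24.5 (SD, n = 4) and 198 ± 21.3 CPM (SD, n = 3). Its logFC was 0.00 with a 95% interval of -0.27 to 0.27 and an adjusted p of 0.997. Rfng read 36.4, 45.5, 30.7 and 25.7 CPM in WT and 38.3, 33.3 and 35.1 CPM in Smchd1-null samples, for a logFC of 0.05 (SE 0.17, adjusted p 0.913). Mfng had the largest positive estimate of the 27 genes, 0.53, but its SE was 0.32, its adjusted p 0.448, and it was -0.06 with batch share as a covariate.

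Endocytosis acts on both sides of the signal. Numb, an adaptor that removes Notch from the surface and is passed unequally to daughter cells, read 31.0, 25.5, 23.3 and 26.9 CPM in WT and 20.6, 20.2 and 18.6 CPM in Smchd1-null samples. It was the one gene of the 27 in which every Smchd1-null sample lay below every WT sample. The means were 26.7 ± 3.23 (SD, n = 4) and 19.8 ± 1.07 CPM (SD, n = 3), and the logFC was -0.39 with an SE of 0.16 and a limma adjusted p of 0.328. The difference was -0.32 in log-CPM within batch 1 and -0.42 within batch 2, and the estimate was -0.40 with batch share as a covariate and -0.40 without WT 4. Mib1, the ubiquitin ligase that drives ligand uptake in the sending cell, read 77.4, 60.9, 77.3 and 80.6 CPM in WT and 61.2, 59.9 and 76.2 CPM in Smchd1-null samples. Here again the samples of batch 1 alone were the lowest 3, and the logFC of -0.25 (SE 0.14, adjusted p 0.415) became -0.05 with batch share as a covariate. Numbl, the relative of Numb, had a logFC of -0.06 (SE 0.35).

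In the nuclear complex, Rbpj, which binds DNA, read 44.2, 40.0, 41.7 and 48.5 CPM in WT and 30.4, 44.3 and 42.6 CPM in Smchd1-null samples. Only Smchd1-null 1 fell outside the WT range, and the logFC was -0.15 (SE 0.17, adjusted p 0.686). Maml2, a Mastermind coactivator, read 68.6, 56.9, 53.8 and 78.2 CPM in WT and 49.6, 48.8 and 58.5 CPM in Smchd1-null samples, with Smchd1-null 3 inside the WT range. Its logFC was -0.29 (SE 0.15, adjusted p 0.383) and -0.18 with batch share as a covariate. Maml1 had a logFC of -0.09, and Maml3 did not pass the filter at 1 to 9 counts per sample.

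Of the 4 tested genes of the Hes and Hey kind, Hes5, Hes1 and Hey1 had negative estimates and Hes6 a positive one. Hes5, a Notch-driven repressor of neuronal differentiation, read 42.0, 84.6, 51.4 and 153 CPM in WT and 30.8, 42.9 and 38.8 CPM in Smchd1-null samples. WT values spread over a wide range with WT 4 on top, and WT 1 lay within the Smchd1-null values. The means were 82.7 ± 50.2 (SD, n = 4) and 37.5 ± 6.14 CPM (SD, n = 3). The logFC was -0.72 with an SE of 0.28, a 95% interval of -1.31 to -0.12 and a limma adjusted p of 0.321. It was -0.51 without WT 4, the sample with the highest astrocyte and oligodendrocyte marker sums. The part of those cells in the difference was not tested beyond leaving that sample out. Within batches the difference in log-CPM was -1.21 and -1.19. The first rests on WT 2 as the only WT sample. In the second WT 4 (153 CPM) lay far above WT 3 (51.4 CPM), with Smchd1-null 3 at 38.8 CPM. With batch share as a covariate the estimate was -0.93 with a limma adjusted p of 0.271. Of the exons of Hes5, 433 bases overlap the antisense gene Gm20421, which had 0 counts.

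Hes6, which differs from its relatives in opposing Hes1 and favouring neuronal differentiation, read 144, 223, 190 and 99.5 CPM in WT and 236, 274 and 161 CPM in Smchd1-null samples. Smchd1-null 1 and 2 were the highest of the 7 samples, and Smchd1-null 3 lay between WT values. The logFC was 0.52 with an SE of 0.20, a 95% interval of 0.10 to 0.94 and a limma adjusted p of 0.31, the smallest of the 27 genes. With batch share as a covariate it was 0.19 with an adjusted p of 0.783, and within batches the difference in log-CPM was 0.19 and 0.22. Hes1, the general Notch target, read 60.8, 62.0, 55.6 and 46.1 CPM in WT and 51.4, 51.5 and 37.5 CPM in Smchd1-null samples, with a logFC of -0.21 and an adjusted p of 0.51. Hey1, a repressor of the Hey class, had a logFC of -0.38 with an adjusted p of 0.367. Shares were taken of the counts of the 7 genes of the Hes, Hey and Nrarp kind. Hes5 took 23.4 ± 13.1% in the 4 WT samples and 11.3 ± 2.84% in the 3 Smchd1-null samples (± SD). Hes6 took 47.5 ± 13.5% and 65.1 ± 5.06% (± SD). These shares sum to a whole, so one cannot go up without another going down. Hey2, Heyl and Nrarp did not pass the filter, and Nrarp had 1 count in 1 sample.

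**Figure D3:**
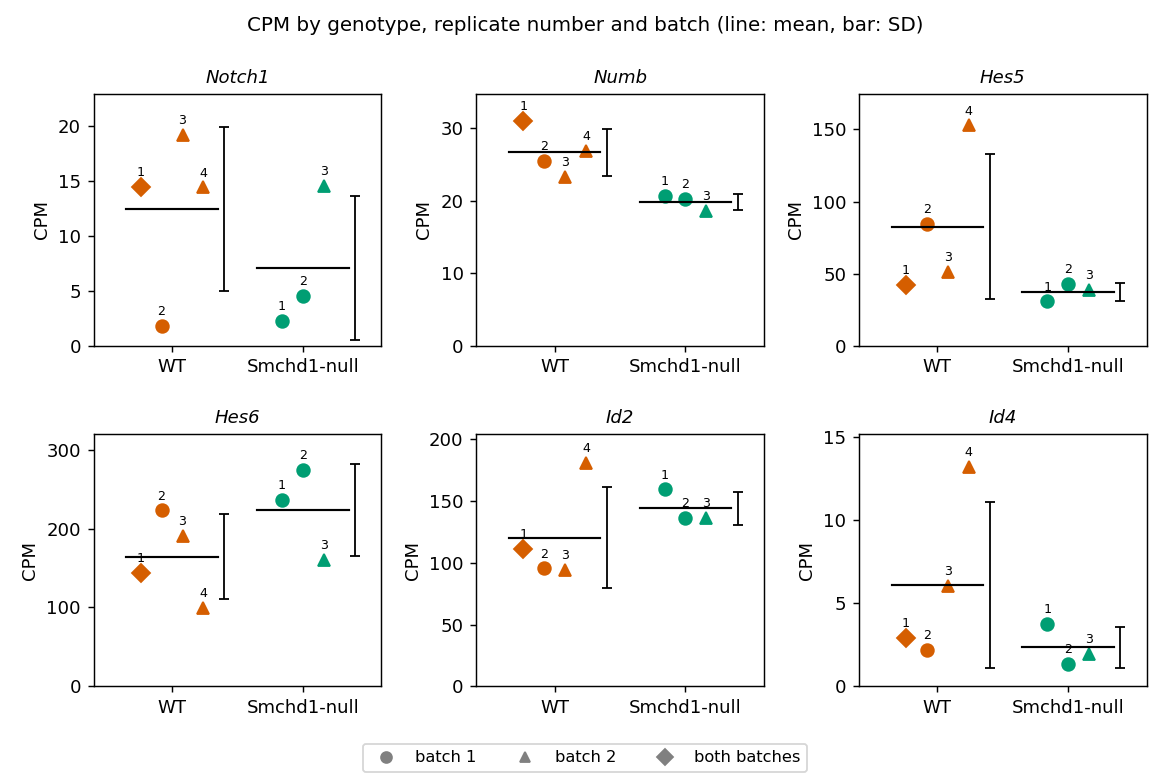
CPM of Notch1, Numb, Hes5, Hes6, Id2 and Id4 by genotype, with the replicate number above each point, its shape giving the batch, the mean as a line and the SD as a bar beside the points. Numb separates the genotypes, WT 4 is the highest sample for Hes5, Id2 and Id4, and the 3 samples of batch 1 alone are the lowest for Notch1. The 6 genes are those at an unadjusted p under 0.05, with Notch1 added after its values were seen.

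Of the Id factors, Id3 was the highest of the 36 genes in WT by CPM, and Id4 was low. Id3 read 353, 544, 377 and 649 CPM in WT and 325, 432 and 369 CPM in Smchd1-null samples, with Smchd1-null 2 and 3 within the WT range, and its logFC was -0.19 (SE 0.17, adjusted p 0.613). Id2 read 111, 95.5, 94.1 and 181 CPM in WT and 160, 136 and 136 CPM in Smchd1-null samples. All 3 Smchd1-null samples exceeded WT 1, 2 and 3 and lay below WT 4. The logFC of Id2 was 0.42 with an SE of 0.16, a 95% interval of 0.08 to 0.76 and a limma adjusted p of 0.317, and it was 0.53 with an adjusted p of 0.301 without WT 4. Within batch 1 the difference was 0.63 in log-CPM and within batch 2 it was 0.06, with WT 4 in batch 2. Id1 read 33.5, 35.1, 32.8 and 93.6 CPM in WT and 31.5, 31.4 and 51.1 CPM in Smchd1-null samples, so that its estimate of -0.21 became 0.01 without WT 4. Id4, the least abundant, read 2.93, 2.22, 6.03 and 13.2 CPM in WT and 3.75, 1.33 and 1.95 CPM in Smchd1-null samples. The groups of Id4 overlapped at WT 1 and 2, its logFC was -1.23 (SE 0.52, 95% interval -2.33 to -0.12, limma adjusted p 0.333), and without WT 4 it was -0.91.

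The proneural factors, the activators that Hes proteins hold back, were at the limit of detection. Neurog1 had 0 counts in all 7 samples, which allows up to 0.399 to 1.13 CPM depending on the sample, for counting error only. Neurog2 had 2 counts in WT 3, 1 in WT 4 and none elsewhere. Neurod1 had 1, 1, 1 and 2 counts in the WT samples and 0, 7 and 10 in the Smchd1-null samples, so the 2 higher samples were both Smchd1-null while the third held no count. None of the 3 was tested.

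Among 39 other genes of the Notch pathway, 37 were tested and 0 were called at the cutoff of 0.25 with limma, edgeR or DESeq2. Without WT 2, and likewise without Smchd1-null 3, 7 of the 37 were called (18.9%), against 22.7% and 23.5% of all tested genes in those fits. The median logFC was -0.06. Limma gave 4 of the 37 (10.8%) an unadjusted p under 0.05, all with lower values in Smchd1-null samples, and edgeR gave 0. Spen, a corepressor that works with Rbpj, had a logFC of -0.60 (SE 0.23, adjusted p 0.321), which was -0.18 with batch share as a covariate. Kat2b, an acetyltransferase, and Eogt, which adds sugar to Notch, had logFCs of -0.53 and -0.74 with adjusted p of 0.322 and 0.339. The fourth, Dtx4 of the Deltex ubiquitin ligases, had -0.33 and did not overlap between groups, as was also so for Dtx2 at 0.41 and Neurl1a at 0.45. These 3 were named after their values were seen, and 3 of 37 (8.11%) compares with the 5.53% of all tested genes without overlap.

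Of 21 other bHLH genes, 7 were tested and 14 were too low. Again 0 were called at the cutoff of 0.25 with limma, edgeR or DESeq2, and at an unadjusted p under 0.05 limma gave 1 and edgeR 0. That gene was Tcf12, an E protein that pairs with proneural factors, with a logFC of -0.34 (SE 0.12) and an adjusted p of 0.297. It was called at 0.25 without WT 2 and without Smchd1-null 3. Its logFC was -0.15 after removal of the length trend. Bhlhe40 and Tcf4, next by p, had logFCs of -0.18 and -0.06.

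Gene length moved with the genotype estimate. Over all tested genes the median logFC went from 0.23 in genes of up to 1500 bases to -0.15 in genes above 8000 bases, and the term for batch 2 had the opposite slope, from -0.24 to 0.19. The 27 genes span 1160 to 14232 bases. After the trend with length was removed from the counts, their median was -0.10, beside 0.0019 over all tested genes, and 0 were called at the cutoff of 0.25, against 0.909% of all tested genes. At an unadjusted p under 0.05 there were then 7 of 27 (25.9%), against 11.9% of all tested genes. These were the former 5 genes together with Hes1 and Hey1. Hes5, at 1363 bases, is short and yet had a negative estimate, and it was -0.85 after removal of the trend. Notch1, Hes6, Id2, Id4 and Numb were at -1.06, 0.42, 0.35, -1.23 and -0.40.

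**Figure D4:**
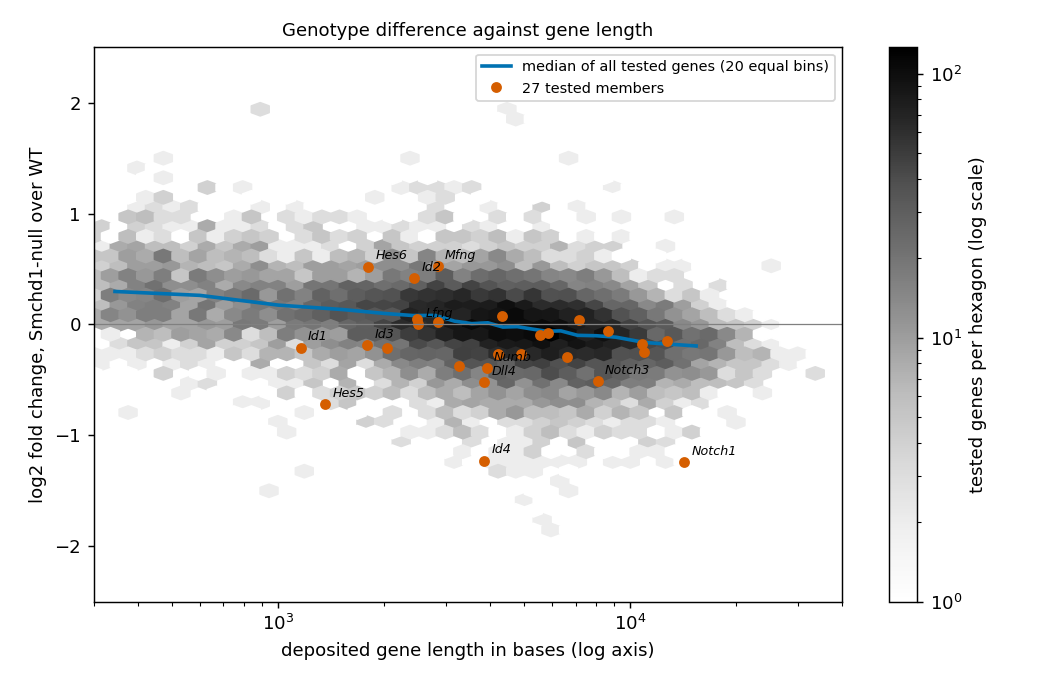
Log2 fold change of Smchd1-null over WT against deposited gene length in bases on a log axis, with all tested genes as shaded hexagons, their running median as a line and the 27 Notch and bHLH genes as points. The running median falls with length, and Hes5, Id1 and Id3 lie below it among the shorter genes while Hes6 and Id2 lie above it. Both axes are limited to the range that holds the 27 genes and most others.

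The batch term was read for the 27 genes after their values were seen. It was called at an adjusted p under 0.05 for 3 of the 27 (11.1%), against 12.4% of all tested genes, 5.55% higher and 6.87% lower in batch 2. Notch1 was higher in batch 2 by 2.36 on the log2 scale (SE 0.35, limma adjusted p 0.00245), while Hes6 and Dll3 were lower, at -0.61 and -0.50 with adjusted p of 0.0185 and 0.0489. All 3 calls were lost without WT 2, without Smchd1-null 3 and with voom run without sample weights. In the last of these Notch1 had 2.14 and a limma adjusted p of 0.0633. Over all tested genes the calls also went to 0 without WT 2, to 0 without Smchd1-null 3 and to 28 (0.21%) with unweighted voom. Leaving out any of the other 5 samples kept the call of Notch1, with 7% to 12.9% of all tested genes called. Hes6 stayed called in 4 of these 5 fits and not without Smchd1-null 2, and Dll3 without WT 4 only. Mib1, Jag1, Id1 and Adam10 were each called in 1 of the 5 fits.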

How the data were processed

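NSC cDNA was sequenced on PromethION flow cells in 2 batches. The authors deposited gene counts, 1 table per sample, with a gene length in bases taken from the annotation. Per the submitters' processing notes and the study's methods, reads were aligned to mm10 (GRCm38) with minimap2 (version 2.17) and primary alignments were counted per Gencode gene with featureCounts in long-read mode. The use of strand in counting is not given in the sources used here, so reads of overlapping antisense genes may not be separated.

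Here the deposited counts were tested with R (version 4.3.3). Genes were filtered by filterByExpr (13305 kept), scaled by TMM and fitted with voomWithQualityWeights in limma (version 3.58.1) with genotype as the only term, over all 7 samples, and p-values were two-sided and adjusted by Benjamini-Hochberg over all kept genes. Fold changes are Smchd1-null over WT, and log-CPM used a prior count of 2. Alternatives were edgeR (version 4.0.16) and DESeq2 (version 1.42.0), other scaling and filters, batch share as a covariate, a replicate block, removal of a lowess trend with length (span 0.3), and leaving out each sample. The fitting code was tested on simulated counts. Samples held 2741820 to 7736498 counts, which limits low genes most, and intervals and floors cover the error they name only. Replicates of a group differed by more than sampling noise (chi-square per degree of freedom at least 2.65). Symbols and positions come from Gencode on GRCm38, and promoters from RefSeq on GRCm38.p6.

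The 36 genes, the lists and the tests were chosen with earlier results of these data known. All 36 genes are named, with full values for those at an unadjusted p under 0.05 and for the 2 of highest mean WT CPM in each role. Of each further list, any called gene and the 3 of smallest p are named.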

Additional observations from a re-analysis of the deposited data

Results flagged for a closer look

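In 5 of the 27 tested genes, 1 WT sample stood off from the other 3 by more than Dixon's 95% critical ratio for 4 samples, where chance alone gives about 1 in 20, or 1.35 genes. Notch1 in WT 2 had a log-CPM of 1.14, with the other WT samples at 3.89 to 4.29, and WT 2 is the WT sample of batch 1 alone. Mib1 in WT 2 had 5.94, with the others at 6.28 to 6.34. In WT 4, the sample with the highest astrocyte and oligodendrocyte marker sums, Id1 had 6.56 against 5.05 to 5.15, Numbl had 3.66 against 2.28 to 2.41, and Maml1 had 4.31 against 4.67 to 4.69. The part of batch and of those cells in these values was not tested.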

How the results depend on the processing

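No gene of the 27 was called at an adjusted p under 0.05 in any of 17 alternatives, and their median log2 fold change stayed between -0.26 and -0.10 (-0.24 to -0.11 when samples were left out in turn). At 0.25 the number called was 0 with edgeR, DESeq2, unweighted voom, RLE factors, either other filter, batch share as a covariate and the length trend removed, and 0 to 11 when samples were left out in turn. It was 2 (7.41%) with batch share as a covariate and WT 4 left out, against 105 (0.816%) of all tested genes. That alternative was chosen after seeing the data. It had Hes5 at -0.76 (limma adjusted p 0.134) and Id2 at 0.54 (limma adjusted p 0.058). Of the other pathway and bHLH genes together, 0 to 8 were called when samples were left out in turn. All-gene calls at 0.25, 144 with limma, were 8 with edgeR, 32 with DESeq2, 10 with unweighted voom, 22 with every detected gene, 346 with at least 10 counts in each sample, 74 with batch share as a covariate, and 11, 2924, 43 and 43 without WT 1, 2, 3 and 4 and 1, 2 and 3153 without Smchd1-null 1, 2 and 3. For the batch term, the number called was 0 to 4 when samples were left out in turn and 0 with unweighted voom. Over all tested genes it was 0 to 1661 (0 to 12.9%) and 28 (0.21%). Both alternatives were chosen after seeing the data. The cause of these shifts was not tested. Of the 9 genes under the filter, with at most 32 counts in a sample, 8 entered the fit with every detected gene and 0 were called.

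In a fit blocked on replicate number, 2 genes were called at 0.25, Hes5 at -0.72 (adjusted p 0.0575) and Id2 at 0.52 (adjusted p 0.0801), and 129 over all genes. Whether the numbers pair the samples was not settled. Same-numbered samples had correlated deviations of -0.04, 0.36 and 0.09. WT 1 correlated best with Smchd1-null 3 (0.24). For WT 2 and for WT 3 the same-numbered Smchd1-null sample correlated best, but the samples of each such pair also share a batch.

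Several estimates changed sign. Dll3 (0.02) was -0.20 with edgeR, -0.19 with DESeq2, -0.20 with unweighted voom, -0.0868 with every detected gene, -0.24 with batch share, -0.13 with the block, -0.0287 with the length trend removed and -0.18 with batch share and WT 4 left out. Jag1 (-0.08) was 0.0198, 0.0158 and 0.0343 with edgeR, DESeq2 and unweighted voom, 0.15, 0.18 and 0.17 with batch share, block and batch share without WT 4. Psen2 (0.07) was -0.51, -0.50 and -0.29 with those 3, -0.12 with every detected gene, -0.17 with batch share and -0.0014 with the block. Adam17 (0.04) was -0.0413, -0.0435 and -0.0089 with those 3. Lfng (0.0012) was -0.0063, -0.0060 and -0.0010 with those 3, -0.0028 with RLE factors, -0.0199 with every detected gene, -0.10 with batch share, -0.047 with the block, -0.0681 with the length trend removed and -0.10 with batch share without WT 4. Numbl (-0.06) was 0.12, 0.34, 0.0557 and 0.31, and Rfng (0.05) was -0.13, -0.16, -0.0209 and -0.18, with batch share, block, length trend removed and batch share without WT 4. Id1 (-0.21) was 0.0127, 0.13 and 0.17 with batch share, block and batch share without WT 4, Mfng (0.53) was -0.0573 and -3e-04 with batch share and batch share without WT 4, and Rbpj (-0.15) was 0.0186 with the length trend removed. Leaving samples out gave -0.24 to 0.12 for Dll3, -0.18 to 0.23 for Jag1, -0.22 to 0.0154 for Rbpj, -0.19 to 0.19 for Numbl, -0.34 to 0.37 for Psen2, -0.17 to 0.22 for Adam17, -0.0754 to 0.0789 for Lfng, -0.0423 to 0.16 for Rfng and -0.33 to 0.0755 for Id1.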
